A study of Mus musculus with 5 samples.

Results

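The miRNAs mmu-miR-3963 and mmu-miR-6366 gave the dominant signals of the mouse kidney arrays of this study. They are 2 of the 1247 miRNAs measured and were chosen by their measured signal on these same arrays, so their high levels are a description and support nothing further. Male C57B/6 mice weighing 20 to 25 g underwent bilateral renal ischemia reperfusion injury (IRI), with the blood flow to both kidneys stopped for 30 min, and were killed 6, 12, 24, or 48 h after reperfusion. Sham mice had the same operation, but no clamp was placed. Per the labels, 8 mice were used at each time point. Each of the 5 groups had 1 array, it is not stated whether RNA of several mice was pooled on it, and the time at which the sham mice were killed is not given in the sources used here. No test between groups was therefore possible. Unless stated otherwise, each error below is that of the scanner software, which for the probes of the pair is about 10% of the signal. It belongs to 1 array, does not follow the spread of its spots, and holds no variation between mice or arrays. In whole kidney tissue, a change in the number of cells of a type and a change in RNA per cell cannot be told apart.

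A miRNA is cut from one side of a hairpin-shaped precursor and guides a silencing complex to messenger RNAs, mainly through the seed, its bases 2 to 8. miRNAs with the same seed tend to share targets. In the kidney, miR-192, miR-194, and the miR-200 family are well-known miRNAs of tubules and epithelium, and miR-21 is well known for its increase after injury. Both miRNAs carry high numbers in the naming system, in which names were given roughly in the order of discovery.

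The sequences are shown because the probes read only a part of each miRNA. Both mature sequences were found in RefSeq (GRCm38.p6). The seed is in capitals, 5′ to 3′.
mmu-miR-3963: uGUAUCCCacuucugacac
mmu-miR-6366: aGCUAAGGggcccggggagcca
The seeds of miR-3963 and miR-6366 differ, and none of the other mature names in the RefSeq table, which holds 1679, has either seed. miR-3963 has 19 bases with 47.4% G or C, and miR-6366 has 22 bases with 72.7% G or C. In the hairpins below, the mature miRNA is in capitals.
Mir3963: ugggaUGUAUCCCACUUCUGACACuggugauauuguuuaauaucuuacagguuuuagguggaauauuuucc
Mir6366: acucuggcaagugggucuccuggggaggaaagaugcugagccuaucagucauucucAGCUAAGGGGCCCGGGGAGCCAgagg
The Mir3963 hairpin has 71 bases and holds the mature miRNA at bases 6 to 24, on its 5′ side. The Mir6366 hairpin has 82 bases and holds it at bases 57 to 78, on its 3′ side.

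Both genes lie outside every other annotated gene. Mir3963 is on the minus strand of chromosome 3 from 151023792 to 151023862, with the mature miRNA from 151023839 to 151023857. Its neighbours are the pseudogene Gm6439, which ends 507.6 kb below its start coordinate, and the long noncoding gene 4930555A03Rik, which begins 270.3 kb above its end. Mir6366 is on the minus strand of chromosome 16 from 18165089 to 18165170, with the mature miRNA from 18165093 to 18165114. The protein-coding gene Rtn4r ends 12.7 kb below it, and the long noncoding gene Gm34679 begins 4.35 kb above it.

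Each miRNA was read by 2 probes, and each probe was printed in 20 spots. A probe is complementary to the 3′ end of its miRNA, and the part that it pairs with is in capitals.
miR-3963, 15-base probe: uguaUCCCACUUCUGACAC
miR-3963, 16-base probe: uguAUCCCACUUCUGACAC
miR-6366, 11-base probe: agcuaaggggcCCGGGGAGCCA
miR-6366, 12-base probe: agcuaaggggCCCGGGGAGCCA
The miR-3963 probes pair from base 5 or 4 to base 19 and so with only a part of the seed. The miR-6366 probes pair from base 12 or 11 to base 22 and with none of the seed. The miR-6366 probes are short and rich in G and C, with 81.8% in the 11-base and 83.3% in the 12-base probe. Over the 3105 miRNA probes of the array the median was 16 bases and 50% G or C, and 3.70% of the probes had 11 or fewer bases. The miR-3963 probes, with 53.3% and 50% G or C, were near that median. The full stretch read by each of the 4 probes was found in 1 mature miRNA and 1 hairpin of the RefSeq table, its own.

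The signal of a miRNA was taken as the sum over its probes above 3 times their error, in the intensity units of the scanner and with no scaling between arrays. miR-3963, with both probes detected on every array, had a sham signal of 7118 ± 556 (scanner error). After IRI, 6 h gave 6549 ± 512, 12 h gave 20249 ± 1554, 24 h gave 24712 ± 1886, and 48 h gave 9460 ± 737. The 6 h array was the lowest and the 24 h array the highest. The gap between sham and 6 h was smaller than the combined error, while each further step in the order (48 h, 12 h, 24 h) was larger than it. miR-6366 had a sham signal of 20386 ± 1507, then 15055 ± 1114 (6 h), 29200 ± 2175 (12 h), 29505 ± 2202 (24 h), and 24231 ± 1808 (48 h). Its order from low to high was 6 h, sham, 48 h, 12 h, and 24 h, and only 12 and 24 h were closer to each other than their combined error. The error of a single probe lay between 10.0008% and 10.0072% of its signal in all cases, so it follows the software's error model and not the spread of the spots.

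Signals of different miRNAs also depend on how well each probe binds and emits light, so a rank or a share describes the array and not the number of molecules. miR-6366 had the highest signal on all 5 arrays, and miR-3963 the second highest on 4 of them. At 6 h the signal of miR-5109 was 7114 ± 540 and above that of miR-3963 (rank 3), by less than the combined error. The next highest miRNA after the pair was let-7b-5p in sham, with 3162, miR-5109 again at 12 h, with 9244, and miR-21a-5p at 24 h, with 7885, and at 48 h, with 4898.

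Both miRNAs together held 42.1% ± 1.46 of the array total in sham. After IRI they held 27.9% ± 1.19 (6 h), 39.7% ± 1.34 (12 h), 39.5% ± 1.32 (24 h), and 44.7% ± 1.49 (48 h). The share was lowest at 6 h, and none of the other 4 arrays came near that value. miR-6366 alone held 31.2% ± 1.63 in sham, then 19.5% ± 1.19 (6 h), 23.4% ± 1.38 (12 h), 21.5% ± 1.31 (24 h), and 32.1% ± 1.68 (48 h), so its share was higher in sham and at 48 h than at the 3 times between. miR-3963 differed from it, with its largest shares of 16.2% ± 1.09 at 12 h and 18.0% ± 1.17 at 24 h as compared to 10.9% ± 0.804 in sham, 8.47% ± 0.626 at 6 h, and 12.6% ± 0.914 at 48 h. A share does not change when a whole array is scaled.

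**Figure D1:**
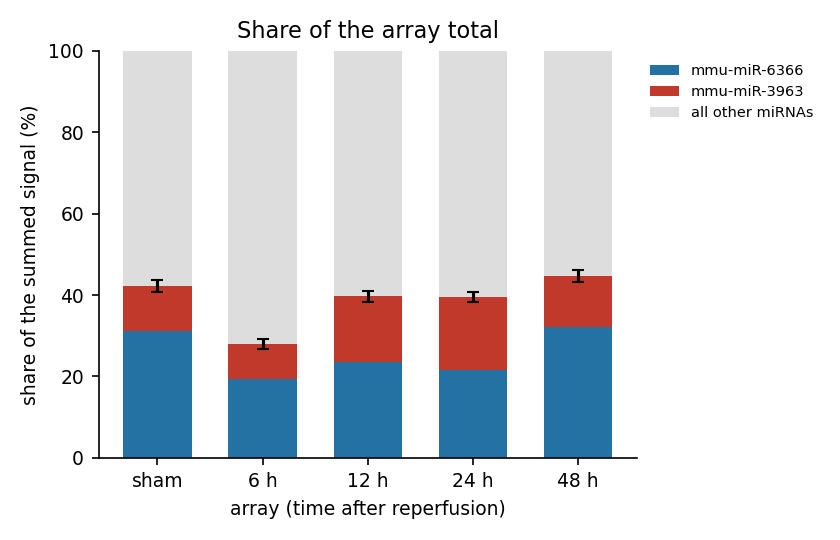
Share of the summed probe signal of each array (%, vertical axis) held by miR-6366 (blue), miR-3963 (red), and all other miRNAs (grey), 1 bar per array. The black bars are the scanner error of the share of both miRNAs together, which was 27.9% at 6 h and between 39.5% and 44.7% on the other arrays.

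The pair also weighed on the array totals, which were 65266 in sham and 77315, 124640, 137161, and 75370 at 6, 12, 24, and 48 h. At 6 h the pair was lower than in sham (21604 against 27504) while all other miRNAs together were higher (55710 against 37762). On the log2 scale the difference from sham at 6 h was −0.35 ± 0.12 for the pair and 0.56 ± 0.03 for the rest, so the 0.24 of the total was made of differences in opposite directions. At 12 and 24 h the pair was at 0.85 and 0.98 and the rest at 0.99 and 1.14. At 48 h the pair was at 0.29 ± 0.12 and the rest at 0.14 ± 0.03. Of the unscaled difference of the totals from sham, the pair made up 37.0% at 12 h, 37.2% at 24 h, and 61.2% at 48 h. These percentages depend on the scaling. After division by the 4 spike-in RNAs described below, the pair had 20599 (6 h), 23829 (12 h), 25487 (24 h), and 16381 (48 h). Each was below sham (24 h difference −2017, sham error 1606). The total was 73717 at 6 h, above sham, and 60064, 64477, and 36644 at the later times, below it. Its 24 h difference of −788 was within the sham error of 1685. Without scaling, the log2 total exceeded sham by 0.93 (12 h) and 1.07 (24 h). Spike-ins dmr_31a (0.82, 1.03) and dmr_3 (0.70, 0.61) rose less, and dmr_285 (1.01, 1.14) and dmr_6 (1.68, 1.58) more. The pair also rose more than dmr_3 at both times. At 12 h the pair, at 0.85 ± 0.11, was above dmr_31a (0.82) as well, but within its scanner error. The direction at 12 and 24 h thus depended on the spike-in.

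As compared to sham and without scaling, the log2 ratio of miR-3963 was −0.12, 1.51, 1.80, and 0.41 after 6, 12, 24, and 48 h, each ± 0.16 (scanner error), which is 0.920, 2.84, 3.47, and 1.33 times the sham signal. miR-6366 had −0.44, 0.52, 0.53, and 0.25, each ± 0.15, or 0.738, 1.43, 1.45, and 1.19 times the sham signal. Both were thus highest at 24 h, miR-6366 by less than the error over 12 h, and only miR-3963 was more than 2-fold higher than sham at any time point.

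These ratios hold properties of the arrays as well. The software multiplies each probe signal by an effective feature size, which was 0.6 for sham, 6 h, and 48 h, 0.774 for 12 h, and 0.776 for 24 h. The first slide carried the arrays of sham and 6 h and the second those of 12, 24, and 48 h, and any comparison of sham with the last 3 times is one in which the slide cannot be told apart from the group. The 4 spike-in RNAs, which are added with the reagents and are not kidney RNA, averaged (geometric mean) 1.05, 2.08, 2.13, and 2.06 times their sham level at 6, 12, 24, and 48 h. Whether these properties account for the differences of either miRNA was not tested.

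With 1 effective feature size on all arrays, miR-3963 had a signal of 15690 at 12 h and 19109 at 24 h and remained highest at 24 h, with log2 ratios over sham of 1.14 and 1.42. miR-6366 had 22625 at 12 h and 22815 at 24 h, so that its highest signal was the 24231 of the 48 h array. Its log2 ratios at 12 and 24 h were then 0.15 and 0.16, about as large as the scanner error of 0.15, and each step in the order from sham through 12 and 24 h to 48 h was smaller than the combined error. From sham directly to 48 h the gap of 3845 was larger than the combined error of 2354. The other 3 arrays are not touched by this setting.

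After each array was divided by its spike-ins, with sham kept as the reference, miR-3963 had 6245 (6 h), 9758 (12 h), 11617 (24 h), and 4599 (48 h). It was still highest at 24 h, now at a log2 ratio of 0.71, but was lowest at 48 h, at −0.63. With each spike-in alone the 24 h ratio of miR-3963 ranged from 0.22 to 1.19 and the 12 h ratio from −0.17 to 0.81. miR-6366 had spike-scaled signals of 14354 (6 h), 14071 (12 h), 13870 (24 h), and 11781 (48 h), each below the sham signal. The steps from 24 to 12 h and from 12 to 6 h in this order were smaller than the combined scanner error, which leaves out the error of the spike-ins. Its log2 ratios were −0.51, −0.53, −0.56, and −0.79, and with each spike-in alone they were also below 0 at every time point, the nearest to 0 being −0.076 at 24 h, within the scanner error. The direction of the difference of miR-6366 from sham at 12, 24, and 48 h and of miR-3963 at 48 h thus depended on the scaling. The 6 h ratios of both miRNAs were below 0 in each of these settings, those of miR-3963 within or near the scanner error.

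**Figure D2:**
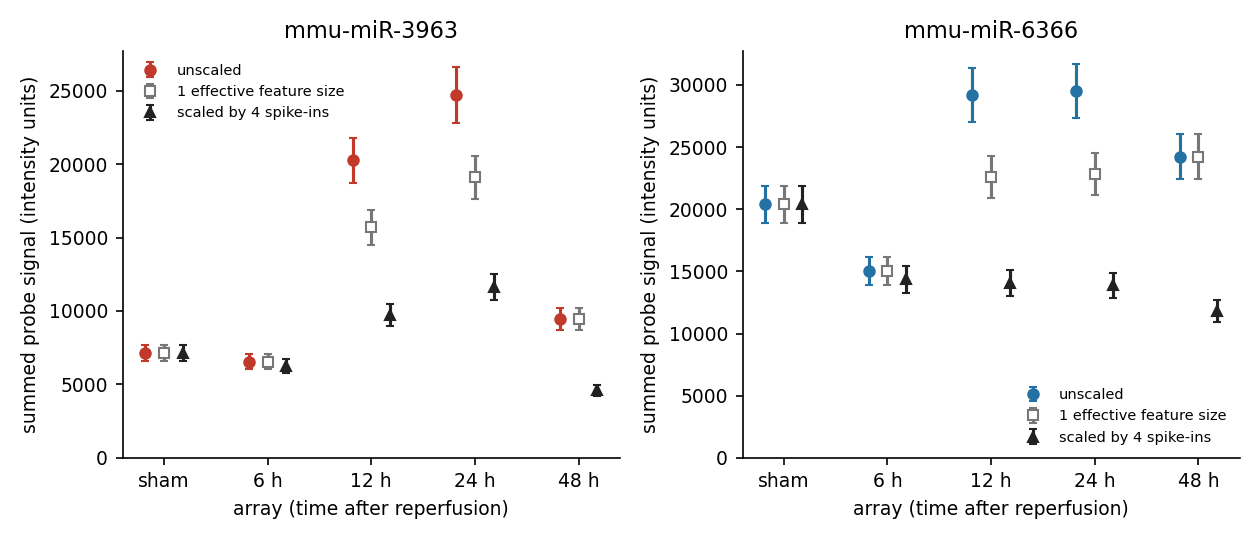
Signal of miR-3963 (left) and miR-6366 (right) on each array (intensity units, both axes from 0), with bars for the scanner error. Circles are unscaled values, squares have 1 effective feature size on all arrays, and triangles were divided by the 4 spike-ins relative to sham, for which the bars leave out the spread of the spike-ins. miR-3963 was highest at 24 h under all 3, whereas the highest array of miR-6366 was 24 h, 48 h, or sham.

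**Figure D3:**
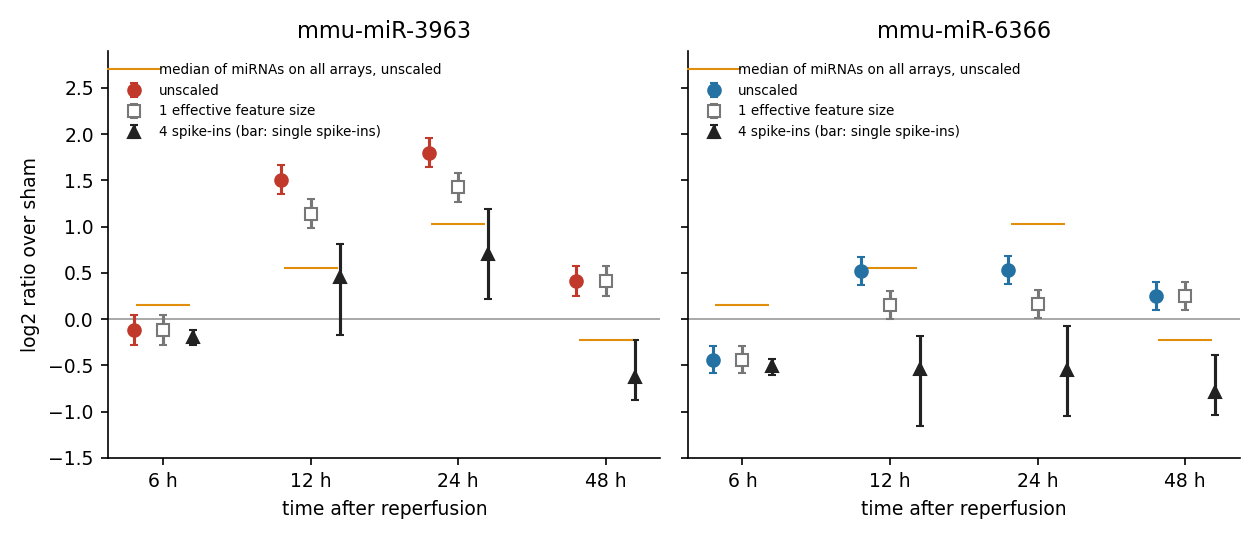
Log2 ratio over sham (vertical axis) of miR-3963 (left) and miR-6366 (right) at 4 times after reperfusion, unscaled (circles), with 1 effective feature size (squares), and scaled by the 4 spike-ins (triangles). Bars on circles and squares are scanner errors, bars on triangles span the values from single spike-ins, and orange lines are the unscaled median of 182 miRNAs. For miR-6366 the bars of the triangles stay below 0 at each time.

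A comparison of the pair with each other on the same array is free of any scaling that multiplies the whole array. The single spike-ins did not share 1 such factor. They ranged from 1.62 (dmr_3) to 3.20 (dmr_6) times sham at 12 h and from 1.53 to 2.98 at 24 h. A difference between the slides can therefore remain in this comparison, and its part was not tested. The log2 ratio over sham of miR-3963 was above that of miR-6366 by 0.32 (6 h), 0.99 (12 h), 1.26 (24 h), and 0.16 (48 h), each ± 0.22 (scanner error). The signal of miR-3963 relative to miR-6366 was therefore 1.99 times its sham value at 12 h and 2.40 times at 24 h, and within the scanner error of its sham value at 48 h. At 48 h it was 0.466 times its 24 h value. The 12 and 24 h arrays shared a slide and nearly the same feature size. Between them miR-3963 was higher at 24 h by a log2 ratio of 0.29 ± 0.16, whereas miR-6366 was at 0.015 ± 0.15. The unscaled median log2 ratio between these arrays was 0.46 over the 182 miRNAs detected on all arrays. Of these, 108 had a higher ratio than miR-3963 and 142 a higher one than miR-6366. From 24 to 48 h on the same slide the log2 ratio of miR-3963 was −1.39, or −1.01 with 1 feature size and −1.34 after spike-in scaling. For miR-6366 it was −0.28, 0.087, and −0.24, so that its direction changed with the feature size.

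The single probes were examined because the pair rests on few sequences. For miR-3963 the 15-base probe had a signal of 1895, 1729, 5849, 7347, and 2548 on the sham, 6, 12, 24, and 48 h arrays, and the 16-base probe 5223, 4820, 14400, 17366, and 6912. The log2 ratios at 24 h were 1.96 and 1.73. Both probes had the same order of arrays, and the longer one was the brighter. For miR-6366 the 11-base probe had 13275, 9850, 19410, 19711, and 16191, and the 12-base probe 7111, 5205, 9790, 9794, and 8040. The log2 ratios at 24 h were 0.57 and 0.46. Here, too, the order of arrays was the same for both probes, but the shorter probe was the brighter on every array.

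The ratio of the brighter to the dimmer probe was not constant. For miR-3963 it was 2.76 in sham, 2.79 at 6 h, and 2.71 at 48 h, but 2.46 at 12 h and 2.36 at 24 h, the arrays with the highest signal. The change from sham was −0.22 ± 0.02 on the log2 scale at 24 h (standard error over spots). For miR-6366 the ratio was 1.87 in sham, 1.89 at 6 h, 1.98 at 12 h, and 2.01 at 24 and 48 h. The gap between probes in the log2 ratio over sham was compared over 122 miRNAs with at least 2 probes detected on all arrays. At 24 h its median was 0.10, as compared to 0.22 for miR-3963 and 0.11 for miR-6366. Of the 122, 28 had a wider gap at 24 h than miR-3963 and 57 a wider one than miR-6366.

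The spots of a probe lay close together. Their coefficient of variation on 1 array ranged from 1.29% to 3.89% for miR-3963 and from 1.69% to 3.78% for miR-6366. The software flagged 20 of 200 spots of miR-3963 and 11 of 200 spots of miR-6366 as outliers, with at most 5 on any probe and array. No spot was saturated, and the brightest spots reached 6.62% and 7.61% of the saturation level. Mean spot signals do not contain the feature size, and for the 11-base probe of miR-6366 they were 46950, 34838, 53191, 53906, and 57264 in the order of time, highest at 48 h. For the 16-base probe of miR-3963 they were 18473, 17047, 39463, 47491, and 24445, highest at 24 h.

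**Figure D4:**
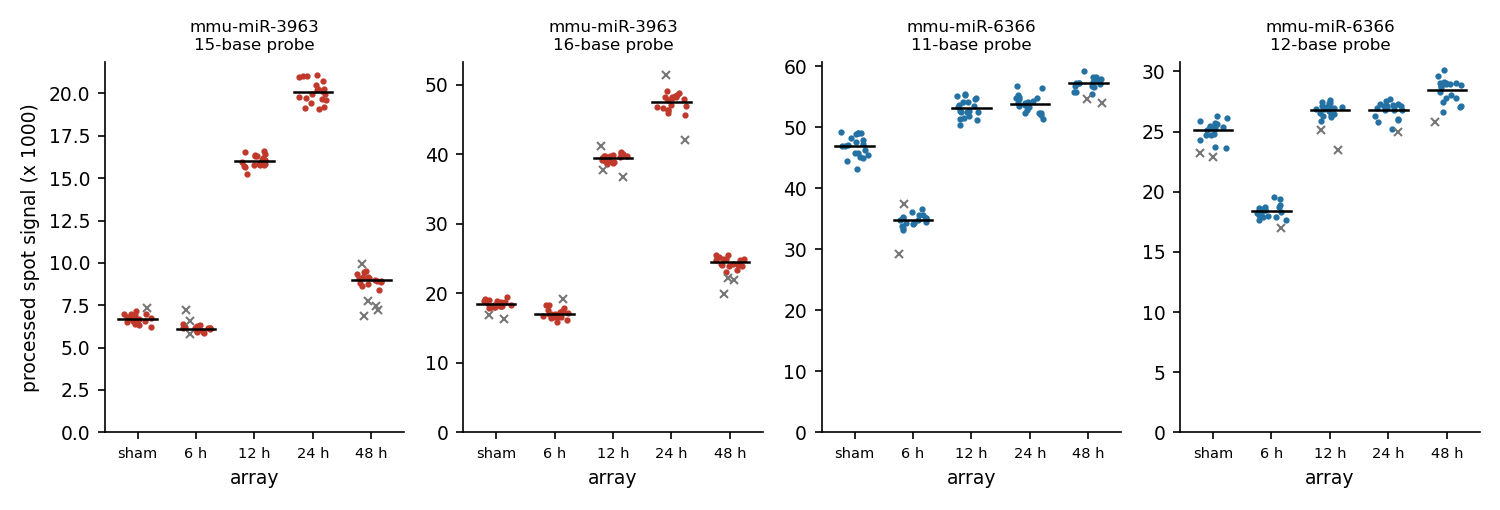
Processed signal of each spot (intensity units, axes from 0) of the 4 probes on the 5 arrays. Points are the spots used, grey crosses are spots flagged by the software, and black lines are the means of the spots used. For both miR-3963 probes the 12 and 24 h arrays stand well above the others, and for both miR-6366 probes the 6 h array is lowest and the 48 h array highest.

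The place of the pair among other miRNAs was read over the 182 miRNAs detected on all 5 arrays, without scaling. At 6 h, 35 of the 182 (19.2%) were more than 2-fold higher than sham, with neither member of the pair among them. At 12 h, 56 (30.8%) were, including miR-3963, and at 24 h, 93 (51.1%) were, again including miR-3963, so that a 2-fold difference at 24 h was shared by about as many miRNAs as not. At 48 h, 14 (7.69%) were, without either. These counts describe the arrays and are not a result about the pair.

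The median log2 ratio of the 182 miRNAs was 0.16, 0.55, 1.03, and −0.23 at 6, 12, 24, and 48 h. miR-3963 was below this median by 0.28 at 6 h and above it by 0.96 at 12 h, 0.76 at 24 h, and 0.64 at 48 h, and 38, 31, and 36 miRNAs had a higher ratio at the last 3 times. miR-6366 was below the median by 0.59 at 6 h, where 171 miRNAs had a higher ratio, and by 0.50 at 24 h, where 161 had. At 12 h it was 0.03 below and at 48 h it was 0.48 above the median, with 46 miRNAs higher. Relative to the other miRNAs miR-6366 was therefore low at 6 and 24 h and high at 48 h. Between 24 and 48 h, when the median log2 ratio was −1.24, only 7 miRNAs had a higher ratio than miR-6366. miR-3963, at −1.39 ± 0.16, was near that median, with 105 miRNAs higher.

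**Figure D5:**
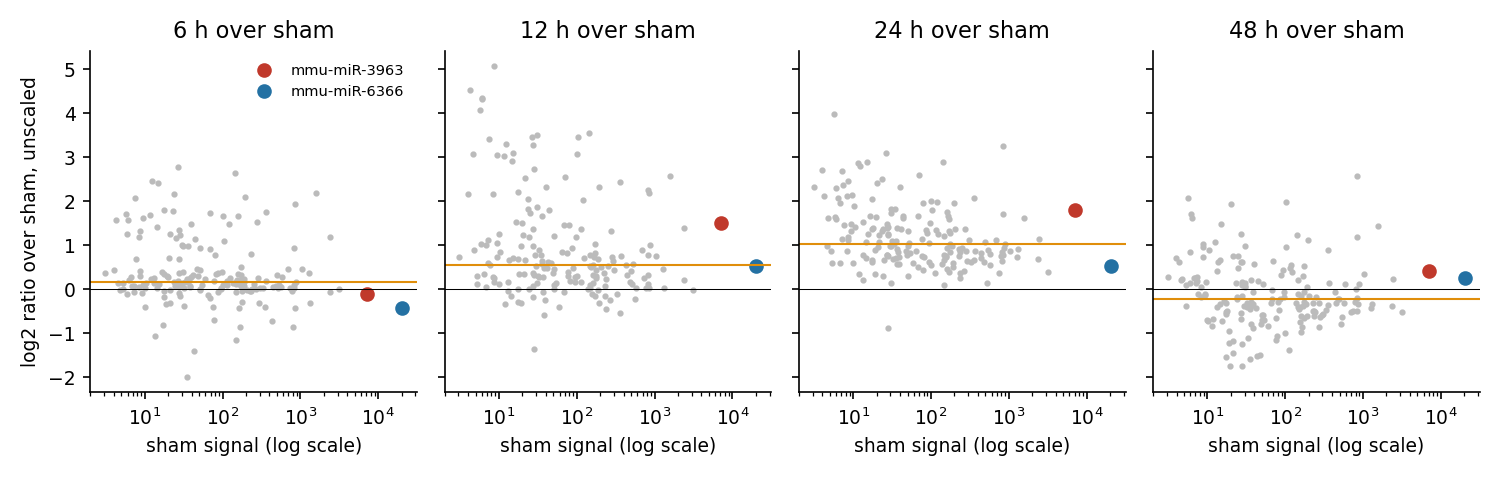
Unscaled log2 ratio over sham (vertical axis) against the sham signal (horizontal axis, log scale) of the 182 miRNAs detected on all arrays, 1 panel per time point. miR-3963 is red, miR-6366 is blue, other miRNAs are grey, and the orange line is the median. Both lie to the right of all other miRNAs, miR-6366 below the median at 24 h (0.53 against 1.03) and above it at 48 h (0.25 against −0.23).

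The miRNAs with the nearest time course were found by the root mean square difference of the log2 ratios over sham at the 4 times, among 181 candidates. For miR-3963 they were miR-29b-3p (0.28), miR-3098-5p (0.29), miR-677-3p (0.29), miR-350-3p (0.34), and miR-29c-5p (0.34), as compared to a median difference of 0.95. The nearest, miR-29b-3p, a member of the miR-29 family, which is well known for targeting collagen mRNAs, had a signal of 115, 131, 293, 293, and 160 on the 5 arrays in order of time. For miR-6366 the nearest were miR-3968 (0.23), miR-5100 (0.32), miR-1892 (0.35), miR-34b-5p (0.35), and miR-362-3p (0.36), with a median of 0.63. Several neighbours of either miRNA were weak in sham, where the lowest detected signal was 1.99. There miR-677-3p, miR-350-3p, and miR-29c-5p had 5.89, 4.74, and 6.70, and miR-34b-5p and miR-362-3p 6.83 and 7.20. miR-3968 had signals of 434, 264, 634, 709, and 416 and miR-5100 of 811, 445, 1385, 1452, and 813, in both of which the 6 h array is the lowest. The pair were not near each other. miR-6366 was 63rd among the neighbours of miR-3963 and miR-3963 118th among those of miR-6366, at a difference of 0.82.

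The array was searched for probes that resemble those of the pair. The miRNA whose probe shares the longest run with a miR-3963 probe, 8 bases, is miR-6419, which was detected on no array. Over mature sequences instead of probes, miR-3968 also has 8 bases of the stretch read by the 16-base miR-3963 probe, and its signals are the 264 to 709 given above. For miR-6366 the longest shared run is 7 bases, with the probes of miR-125a-3p, miR-1901, miR-5122, and miR-711. The highest of their signals was 94.3, for miR-125a-3p at 12 h, and miR-711 did not exceed 5.05. How much of any signal comes from pairing with other RNAs was not tested.

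The marker miRNAs of kidney tubules, miR-192-5p, miR-194-5p, and miR-204-5p, were detected on every array, and miR-215-5p on none. Their summed signal was 893, 922, 1154, 1250, and 640 in the order sham, 6, 12, 24, and 48 h, and that of 5 epithelial miRNAs of the miR-200 family was 1306, 1422, 1580, 2208, and 1059. Both sums were highest at 24 h, as the unscaled signals of miR-3963 and miR-6366 were, but lower at 48 h than in sham, where the pair was higher. The endothelial miR-126-3p, an older name of miR-126a-3p, had 827, 881, 898, 1284, and 586 in the same order, and miR-126-5p was detected in sham only, with 3.82. Of the red blood cell miRNAs miR-451a had 159, 500.3, 234, 538, and 105, and miR-144-3p was not detected on any array. The probes of miR-3107-5p, which also read miR-486-5p, had at most 19.2. Of 6 leukocyte miRNAs 3 or 4 were detected on an array, with a sum of 47.8 to 111. The part of these cells in the signals of the pair was not tested.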

How the data were processed

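Kidney miRNAs were measured on 1-colour Agilent mouse miRNA microarrays, with 1 array for each of 5 groups taken from the sample labels. Per the labels, total RNA came from 20 mg of kidney, and 0.1 µg was labelled with Cy3. The deposited intensity values are the output of Agilent Feature Extraction 10.7.1.1, which subtracts the background and removes spatial trends on each array and does no scaling between arrays. The authors also deposited a processed log2 table, used as an alternative only. Its method between arrays and its centring are not stated in the sources used here, and its scale is known only in part. A higher value in it stands for a higher signal, but for both members of the pair its differences between arrays were not those of the scanner signals. Its column medians, which most rows of a column share, were −3.12, −3.22, −3.30, −3.32, and −3.01 in the order sham, 6, 12, 24, and 48 h, and the 24 h one is the log2 of the blank value 0.1.

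For each miRNA the total probe signals were summed once per probe over probes above 3 times their error, and the scanner errors were added as squares. An undetected miRNA counted as 0.1, the blank value of the methods, in the array totals and shares, and as 0 in the other sums. For the spike-in scaling the geometric mean of dmr_285, dmr_31a, dmr_6, and dmr_3 was used. The miRNAs named are the pair, the spike-ins, the highest other miRNA of each array, the 5 nearest patterns to each, those sharing a seed or the longest probe run with the pair, and the cell markers. Among the markers, miR-126a-3p and miR-126a-5p were read under their older names on the array, matched by probe sequence to the RefSeq hairpin, and miR-486-5p under miR-3107-5p, whose probes list it in the files. The members and lists were chosen with earlier results of these data known. Of the 1247 miRNAs, 1017 matched a mature sequence in RefSeq. The probe coordinates in the files lie within both hairpin genes but not on the mature miRNA: of 978 minus-strand probes, 476 lie at the mirrored position of their hairpin and 0 on the mature miRNA, so RefSeq positions were used.

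On the same 5 arrays 219, 248, 279, 298, and 197 miRNAs were detected. Precision is limited by the number of arrays. No test, p-value, or correlation over samples was computed. The sums were tested on simulated data. Normexp was run in limma 3.58.1 (R 4.3.3), the sums in Python 3.11.15 with pandas 2.3.3 and numpy 2.4.6, and the plots in matplotlib 3.10.9.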

Additional observations from a re-analysis of the deposited data

How the results depend on the processing

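No paired analysis was possible because no group had more than 1 array. Values are log2 ratios over sham in the order 6, 12, 24, and 48 h, and a value is said to have moved where it changed by more than the scanner error. The cause was not tested except where the construction of an alternative shows it. Medians of spots moved no value, the software's total gene signal, normexp, and no detection filter moved no log2 ratio, and scaling by the labelling or the hybridization pair of spike-ins alone moved none from its value with all 4.

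With 1 effective feature size miR-3963 moved to 1.14 and 1.42 and miR-6366 to 0.15 and 0.16 at 12 and 24 h. With the 4 spike-ins miR-3963 had 0.46, 0.71, and −0.63 at 12, 24, and 48 h and miR-6366 −0.53, −0.56, and −0.79, and all of these except the first 2 values were of opposite sign to the unscaled one. With dmr_6 alone miR-3963 had −0.17 at 12 h. After division by the 75th percentile, miR-3963 had −0.42, 0.88, and 0.63 and miR-6366 −0.74, −0.11, and −0.63 at 6, 12, and 24 h. After division by the median ratio of all miRNAs that every array detected, miR-3963 had 0.96, 0.76, and 0.64 at 12, 24, and 48 h and miR-6366 −0.59, −0.03, −0.50, and 0.48. Under both of these miR-6366 changed sign at 12 h, within the scanner error, and at 24 h, and miR-3963 was highest at 12 h instead of 24 h. Quantile normalization set miR-6366 to 0 at every time, since it ranked first on each array, and miR-3963 to 0 at 12, 24, and 48 h and to −1.11 at 6 h, where it had rank 3. The processed table gave 0 for miR-6366 at every time and −0.63, 0.61, 0.45, and 0 for miR-3963, again highest at 12 h.

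The share of both miRNAs, in the order sham, 6, 12, 24, and 48 h, was 35.0%, 18.1%, 31.2%, 30.3%, and 37.6% with the total gene signal, into which the software carries signal of other miRNAs or controls, and 36.7%, 24.3%, 34.8%, 34.5%, and 39.9% with normexp and an offset of 50. The processed table gave 37.6%, 32.3%, and 38.4% for sham, 6 h, and 48 h, and no detection filter gave 46.4% at 48 h. The 6 h array had the lowest share under each alternative.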

Other observations

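Between mature miRNAs and the probes, the longest shared run in the RefSeq table was 9 bases, between the 12-base probe of miR-6366 and miR-711 (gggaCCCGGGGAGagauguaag, shared bases in capitals). miR-711 itself was detected at 6, 12, and 24 h, with signals of 2.53, 4.49, and 5.05. The 16-base probe of miR-3963 shares 8 bases with miR-3968 (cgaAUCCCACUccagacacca), whose signal was 264 to 709.

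In the processed log2 table, whose scale is known only in part, miR-6366 had the same value, 14.49, on all 5 arrays and ranked second on each. miR-3963 had 13.31, 12.69, 13.92, 13.76, and 13.31 in the order of time and ranked between 4 and 7.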
